A study of Mus musculus with 8 samples.

Results

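The genes described here are 10 mouse genes of MHC class I and antigen processing: H2-Q10, H2-K1, H2-D1, H2-T23, H2-M3, B2m, Tap1, Tapbp, Psmb8 and Psmb9. They were measured in AML12, a hepatocyte line established from the liver of a mouse with a human TGFA transgene. The cells either stably expressed Zfp125, a zinc finger gene (Zfp125 cells), or carried the empty vector (EV cells), with 4 samples in each group. All cells were under G418 selection in control medium, and 1 Affymetrix MoGene 2.0 ST array was hybridized for each sample. Whether the 4 replicates are separate cultures, pools or clones is not stated, and the spread on which the tests rest may be technical. The genes were found by taking every transcript cluster, the unit in which the array reports expression, whose platform annotation names 1 of the 10 symbols. This gave 13 of 41345 clusters, of which 11 carry 1 symbol and 2 carry several. H2-D1 is covered only by a cluster shared with H2-Q2, and Tapbp has 3 clusters, 1 of them shared with its neighbour Zbtb22. H2-Q10 has 2 clusters of its own.

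MHC class I molecules display peptides from inside the cell to cytotoxic T cells and natural killer cells. The proteasome, in the form that carries the subunits encoded by Psmb8 and Psmb9, cuts proteins into peptides, the transporter of Tap1 and Tap2 carries them into the endoplasmic reticulum, and tapasin, encoded by Tapbp, holds the heavy chain beside the transporter until a peptide is bound. The heavy chain is stable at the surface only together with beta-2 microglobulin, the product of B2m. Interferons and the transactivator Nlrc5 raise the transcription of most of these genes. H2-Q10 stands apart in this family as a class I protein that the liver secretes into plasma.

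The promoters of 4 class I heavy chains are shown because H2-Q10 has other letters than H2-K1, H2-D1 and H2-Q7 in shared class I elements. RefSeq starts on GRCm38.p6 were found for all 10 genes, each as a window of 300 bases around the start. For H2-K1, 2 starts were listed and the first listed was used. The H2-K1 stretch runs from the upstream kappaB element to the first CCAAT box on the reverse strand, and the others are the letters aligned with it, which in H2-Q10 hold no CCAAT box. Capitals mark, in order, the kappaB element, the interferon element, the core of the cyclic AMP element and the reversed CCAAT box of H2-K1 and the letters aligned with them in the other genes. The H2-K1 stretch is at chr17:34000359-34000458 on the minus strand, and those of H2-D1, H2-Q7 and H2-Q10 are on the plus strand at chr17:35262923-35263022, chr17:35439022-35439119 and chr17:35469913-35470015.
H2-K1: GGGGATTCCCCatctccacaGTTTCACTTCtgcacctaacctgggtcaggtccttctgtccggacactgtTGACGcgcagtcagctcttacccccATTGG
H2-D1: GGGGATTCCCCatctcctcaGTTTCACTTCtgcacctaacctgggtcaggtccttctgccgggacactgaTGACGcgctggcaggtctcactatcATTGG
H2-Q7: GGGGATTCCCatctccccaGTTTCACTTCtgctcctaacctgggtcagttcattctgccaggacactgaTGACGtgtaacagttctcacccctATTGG
H2-Q10: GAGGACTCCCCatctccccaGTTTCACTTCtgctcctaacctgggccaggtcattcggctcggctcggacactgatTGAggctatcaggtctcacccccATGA

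Of the 100 bases of the H2-K1 stretch, 89 were the same in H2-D1, 85 in H2-Q7 and 84 in H2-Q10. The interferon element was identical in the 4 genes. Counted from 1 at the first capital of the kappaB element of H2-K1, H2-Q10 carried the substitutions G2A and T6C, and H2-D1 carried none. H2-Q7 carried no substitution there, but 1 of the 11 bases of that element had no counterpart in H2-Q7. In the cyclic AMP element core, the alignment used left 2 of the 5 bases of H2-K1 without a counterpart in H2-Q10. The place of that gap is not settled, because the letters CG of H2-K1 are repeated directly after the core. With the gap placed on the repeat, the pairing is equally good and TGAGG of H2-Q10 stands against TGACG. Searched on both strands of the 300-base windows, a match to the kappaB consensus was present in 4 of the 10 genes, H2-K1, H2-D1, H2-M3 and B2m, and in 4.35% of 27025 promoters. The interferon motif GAANNGAAAC was present in H2-Q10, H2-K1, H2-D1 and H2-M3 and in 1.77% of all promoters, and the interferon motif GAAANNGAAA in H2-T23 and B2m and in 3.49%. The motif TGACG was present in 6 of the 10 genes and in 21.0% of all promoters, and CCAAT in 8 of the 10 and in 37.9%. H2-Q10 and Psmb8 held neither of the last pair. H2-K1 and H2-D1 each gave 2 overlapping matches to the kappaB consensus, counted as 1 gene each. The windows of Tap1 and Psmb9 overlap. Their TGACG matches are the same site, as are their CCAAT matches, and each site was counted for both genes. These matches describe the C57BL/6J reference and say nothing of which factors bind. Whether the probes or these letters match the class I alleles of AML12 was not tested.

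All values below are log2 expression values as deposited, changes are Zfp125 minus EV with the standard error (SE) of limma's moderated model, and means are given with SDs (n = 4 arrays a group). Calls were made at adjusted p-values below 0.05, with the adjustment over all 41345 clusters. The 10 genes were chosen by symbol, but with the Zfp125 minus EV changes of these same arrays known, so their changes and calls are descriptions and no p is given for them. Zfp125 itself is not analysed here, and the group labels have no check from its level. The array medians lay between 4.32 and 4.37, correlations between arrays over all clusters were 0.977 to 0.984, and 0 pairs of arrays were identical. The median within-group SD over all clusters was 0.17 in EV cells and 0.15 in Zfp125 cells.

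One of the 13 clusters was called lower and 0 were called higher, beside 0.123% of all clusters called lower and 0.0242% called higher. It was cluster 17337152 of H2-Q10, which fell to a level 2.24-fold lower in Zfp125 cells. The values were 9.23, 8.91, 9.23 and 9.15 in EV replicates 1 to 4 and 7.84, 7.94, 7.93 and 8.16 in Zfp125 replicates 1 to 4. Every Zfp125 array lay below every EV array. The mean was 9.13 ± 0.15 in EV cells and 7.97 ± 0.14 in Zfp125 cells, and the change was -1.16 ± 0.11. All Zfp125 arrays lay below all EV arrays for 3.03% of all clusters and above them for 3.2%. Of the 51 clusters called lower, 21 had a change at least as low as this one, itself included. In RNA from a whole culture, fewer cells that express a gene and less RNA per cell cannot be told apart.

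**Figure D1:**
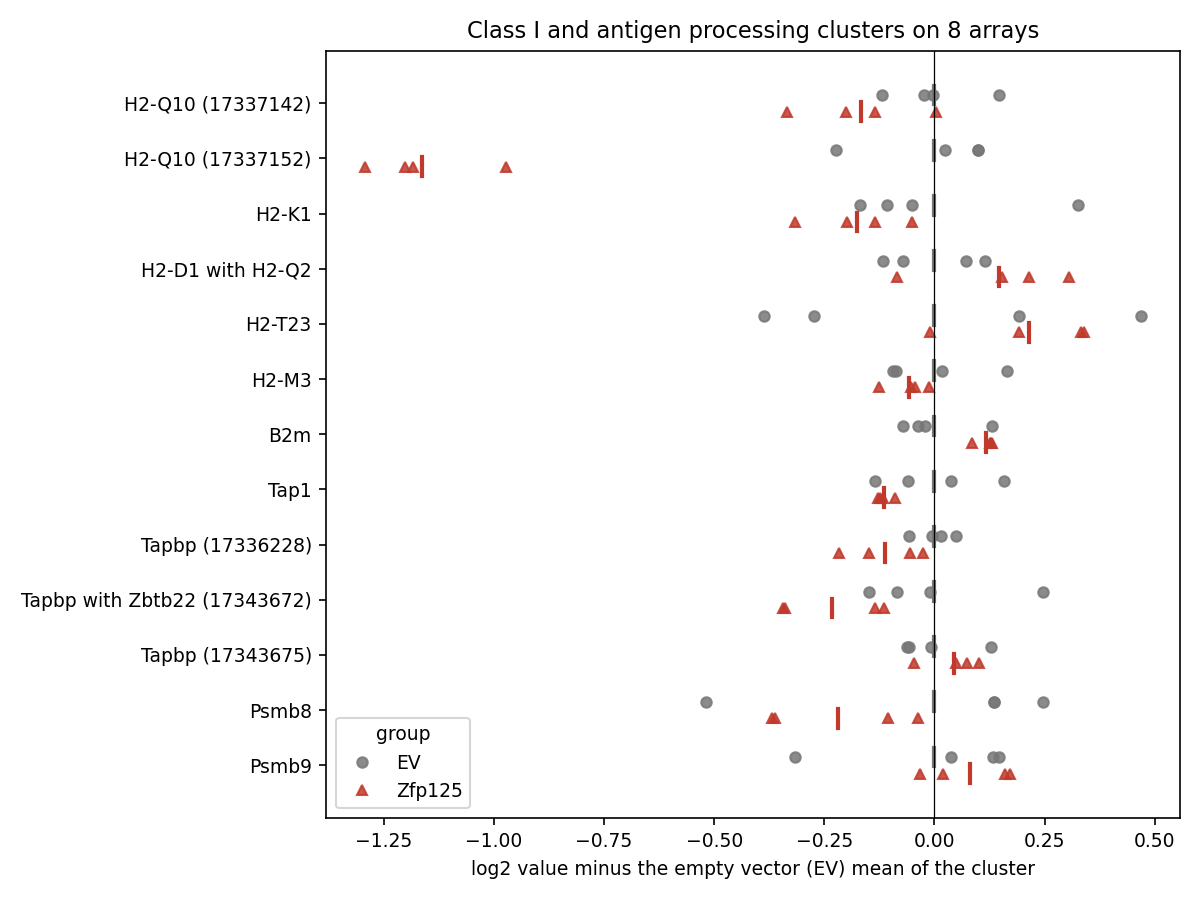
Log2 values of the 13 clusters on each array after subtraction of the EV mean of the cluster (x axis), one row for each cluster, with EV arrays as grey circles, Zfp125 arrays as red triangles and short bars at the group means. Cluster 17337152 of H2-Q10 is the row whose groups stand apart, with a mean change of -1.16, while the other 12 overlap and have mean changes between -0.23 and 0.21.

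The second cluster of H2-Q10, 17337142, was dim: its values were 4.39, 4.37, 4.27 and 4.54 in EV cells and 4.19, 4.06, 4.26 and 4.40 in Zfp125 cells, around the median of all clusters of 4.34. The groups overlapped, and the change was -0.17 ± 0.10. A test of the difference between the 2 clusters was not made. With the mean of both clusters in place of either, the change was -0.66 ± 0.09, and that mean was also called lower. Class I heavy chains are near copies of each other, so probes of 1 gene may also take up RNA of another, and the share of such signal was not tested.

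The classical heavy chain H2-K1, which presents peptides to cytotoxic T cells, had values of 8.20, 7.71, 7.77 and 7.83 in EV cells and 7.74, 7.83, 7.56 and 7.68 in Zfp125 cells. The groups overlapped, EV replicate 1 was the highest array, and the change was -0.18 ± 0.12. Without EV replicate 1 the change was -0.07, and with any other array left out it lay no lower than -0.23. The cluster shared by H2-D1, the other classical heavy chain of the reference strain, and H2-Q2 had values of 4.89, 4.85, 4.70 and 4.66 in EV cells and 4.93, 4.69, 5.08 and 4.99 in Zfp125 cells. Its change was 0.15 ± 0.11 with overlapping groups, 0.09 without Zfp125 replicate 3 and 0.22 without Zfp125 replicate 2, and the part of either gene in it cannot be told apart.

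The nonclassical heavy chains also overlapped between groups. H2-T23 encodes Qa-1, which shows leader peptides of other class I chains to natural killer cells, and its values ran from 3.79 to 4.64 in EV cells and from 4.17 to 4.52 in Zfp125 cells. Its change, 0.21 ± 0.19, had the largest SE of the 13 clusters. It was 0.09 without EV replicate 4 and 0.37 without EV replicate 3. H2-M3, which presents formylated peptides of bacteria and mitochondria, ran from 5.56 to 5.82 in EV cells and from 5.53 to 5.64 in Zfp125 cells, a change of -0.06 ± 0.09, which was -0.0036 without EV replicate 3 and -0.09 without EV replicate 4. Other class I genes of the Q region share clusters with each other. The brighter cluster of H2-Q7, H2-Q9 and H2-Q8 had means of 8.07 ± 0.12 in EV cells and 7.91 ± 0.03 in Zfp125 cells. All Zfp125 arrays lay below all EV arrays there, but the change of -0.16 ± 0.09 did not pass the test (limma, adjusted p = 0.62). The dimmer cluster of the same 3 genes had means of 5.07 ± 0.40 in EV cells and 5.12 ± 0.15 in Zfp125 cells. Its groups overlapped, with a change of 0.05 ± 0.18 (limma, adjusted p = 0.969).

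B2m, the light chain that all of these heavy chains share, is needed for their stable folding. Its values were 11.49, 11.29, 11.34 and 11.32 in EV cells and 11.44, 11.49, 11.49 and 11.49 in Zfp125 cells. EV replicate 1 lay among the Zfp125 arrays and the other 3 EV arrays lay below them, so the groups overlapped. The means were 11.36 ± 0.09 and 11.48 ± 0.02, and the change of 0.12 ± 0.08, the smallest SE of the 13, was in the other direction from that of H2-Q10. B2m is on chromosome 2, apart from the other 9 genes, which are on chromosome 17.

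**Figure D2:**
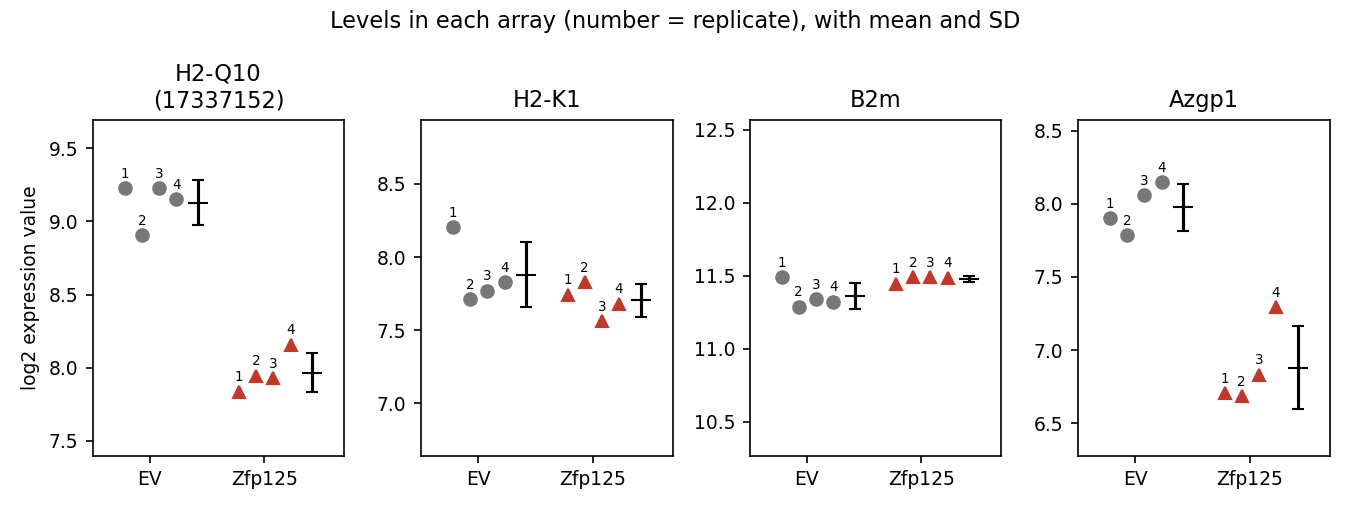
Log2 expression value (y axis, the same span in each panel) of cluster 17337152 of H2-Q10, H2-K1, B2m and the class I relative Azgp1 in EV cells (grey circles) and Zfp125 cells (red triangles), with replicate numbers above the points and the mean and SD beside them. H2-Q10 and Azgp1 have no overlap between groups, with changes of -1.16 and -1.10, and H2-K1 and B2m overlap, with changes of -0.18 and 0.12.

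The genes of peptide transport and loading showed small differences. Tap1, an ATP-driven subunit of the peptide transporter, had values of 5.81, 5.93, 5.71 and 5.64 in EV cells and 5.65, 5.69, 5.65 and 5.66 in Zfp125 cells. The Zfp125 arrays lay inside the range of the EV arrays, and the change was -0.11 ± 0.09. It was -0.06 without EV replicate 2 and -0.16 without EV replicate 4. Of the tapasin gene Tapbp, cluster 17336228 had means of 8.18 ± 0.04 and 8.07 ± 0.09, a change of -0.11 ± 0.08. Cluster 17343675 had means of 5.50 ± 0.09 and 5.55 ± 0.06, a change of 0.04 ± 0.08, and of 0.02 to 0.09 with 1 array left out. The cluster that Tapbp shares with Zbtb22 had the lowest change among the 12 that were not called, -0.23 ± 0.11, from 5.78 ± 0.17 to 5.55 ± 0.13, and -0.15 without EV replicate 3. The 3 clusters of Tapbp thus had changes of either sign, and in each the groups overlapped.

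The inducible proteasome subunits replace constitutive ones in cells exposed to interferon. Psmb8 had values of 4.95, 5.60, 5.60 and 5.71 in EV cells and 5.43, 5.10, 5.11 and 5.36 in Zfp125 cells. EV replicate 1 was the lowest of all 8 arrays while the other 3 EV arrays were the highest, and the change was -0.22 ± 0.17. It was -0.39 without EV replicate 1 and -0.14 without EV replicate 4, and it was not called in either case. Psmb9 ran from 4.44 to 4.90 in EV cells and from 4.72 to 4.93 in Zfp125 cells, a change of 0.08 ± 0.12, of -0.03 when EV replicate 4 was left out and of 0.13 when EV replicate 2 was. Psmb9 and Tap1 lie next to each other and are read in opposite directions from starts 226 bases apart, so that their 300-base windows share 275 bases, chr17:34187306-34187580. Their changes were 0.08 and -0.11.

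Over the 13 clusters the median change was -0.11, beside -0.00095 over all clusters. Among the 12 clusters not called, 7 changes were below 0 and 5 above, and the SEs of the 13 lay between 0.08 and 0.19. Left out one at a time, the arrays gave changes of the brighter H2-Q10 cluster between -1.24 and -1.12, called in 8 of 8 cases. The call of H2-Q10 ended without variance moderation, where 4 clusters in all were called in place of 61, and with the replicate number as a block, where 0 were. 0 of the other 12 clusters were called in any setting that was tried.

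Among the other genes of the pathway, 131 in 7 lists, 114 had a cluster of their own and 120 clusters were tested. One gene fell and 0 rose. For comparison, 0.179% of the clusters with 1 gene symbol were called lower and 0.0383% higher, 0.217% in all. All Zfp125 arrays lay below all EV arrays in 9 of the 120 clusters and above them in 3, beside 3.51% and 3.65% of the clusters with 1 gene symbol. The gene that fell was Azgp1, zinc-alpha-2-glycoprotein, which has the fold of a class I heavy chain but is secreted and needs no beta-2 microglobulin. Its values were 7.90, 7.79, 8.06 and 8.15 in EV cells and 6.70, 6.68, 6.83 and 7.29 in Zfp125 cells. Every Zfp125 array lay below every EV array. The change was -1.10 ± 0.15, a 2.14-fold lower level (limma, adjusted p = 0.0361). With 1 array left out the call ended in 7 of 8 cases, with limma's adjusted p between 0.0135 and 0.122 and changes between -1.24 and -1.03. It held only when Zfp125 replicate 4 was left out, and it ended without moderation (adjusted p = 0.144).

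Of the 29 measured relatives of the class I heavy chains, 1 fell and 0 rose, with a median change of -0.0026 over 31 clusters. Hfe, which couples a class I fold to iron sensing, had a change of -0.40 ± 0.10 (adjusted p = 0.23, limma), and H60b, a ligand of the NKG2D receptor of natural killer cells, one of 0.44 ± 0.10 (adjusted p = 0.171, limma). In both the groups did not overlap. Fcgrt, the neonatal Fc receptor, and Mr1, which presents vitamin B metabolites, had changes of -0.10 ± 0.09 and 0.0045 ± 0.09. Of the 40 genes listed, 11 are not analysed here, among them H2-Q7, H2-Q8 and H2-Q9, which have no cluster to themselves.

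Of 18 measured genes of peptide transport, trimming and loading, 0 were called in either direction, and the median change was 0.03. Tap2, the partner of Tap1, had a change of 0.21 ± 0.12 (adjusted p = 0.631, limma). The chaperones of the loading complex had changes of -0.07 ± 0.08 for Calr, 0.07 ± 0.08 for Canx and -0.01 ± 0.08 for Pdia3, and the trimming peptidase Erap1 one of 0.03 ± 0.12. Hspa5, the main chaperone of the endoplasmic reticulum, had a change of -0.40 ± 0.09, and Sec61a1 and Sec61b, of the channel through which new proteins enter, of 0.38 ± 0.09 and -0.33 ± 0.11 (adjusted p = 0.156, 0.201 and 0.374, limma). The second cluster of Sec61b was at -0.07. Of 8 cytosolic peptidases 0 were called, with Prep at -0.20 ± 0.09, Ide at 0.19 ± 0.08 and Lap3 at -0.09 ± 0.09.

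The other proteasome genes did not pass the test either. Of the 7 partners of the inducible subunits, Psmb10, the third inducible catalytic subunit, had a change of -0.13 ± 0.09, and the subunits of the interferon-induced activator, Psme1 and Psme2, had changes of -0.11 ± 0.08 and 0.12 ± 0.19. The constitutive catalytic subunits that Psmb8, Psmb9 and Psmb10 replace, Psmb5, Psmb6 and Psmb7, had changes of -0.16 ± 0.09, -0.04 ± 0.11 and -0.13 ± 0.10. Over 14 clusters of the constitutive core particle the median was -0.13. Psmb2 and Psma1 were at -0.24 ± 0.08 and -0.28 ± 0.10 with groups that did not overlap (adjusted p = 0.382 and 0.428, limma).

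Of 28 measured regulators of class I transcription 0 were called, with a median change of -0.05 over 30 clusters. Nlrc5, the class I transactivator, had means of 4.22 ± 0.27 and 4.25 ± 0.28 and a change of 0.02 ± 0.17. Irf1, an interferon regulatory factor, had one of 0.06 ± 0.09. Of the subunits of NF-Y, the factor that binds CCAAT boxes, Nfyc was at 0.38 ± 0.10 and Nfyb at -0.27 ± 0.09 with groups that did not overlap (adjusted p = 0.222 and 0.393, limma), and Nfya at 0.04 ± 0.10. Irf8 had a change of 0.34 ± 0.13 in 1 cluster and of -0.02 ± 0.14 in another. In the MHC class II pathway, which belongs to cells that take up antigen, 0 of 11 genes were called, with Ctss, H2-Oa and H2-DMa at 0.16 ± 0.11, -0.20 ± 0.15 and 0.14 ± 0.11. The mean level of its clusters was 3.93 to 4.19 on the EV arrays and 4.00 to 4.12 on the Zfp125 arrays.

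**Figure D3:**
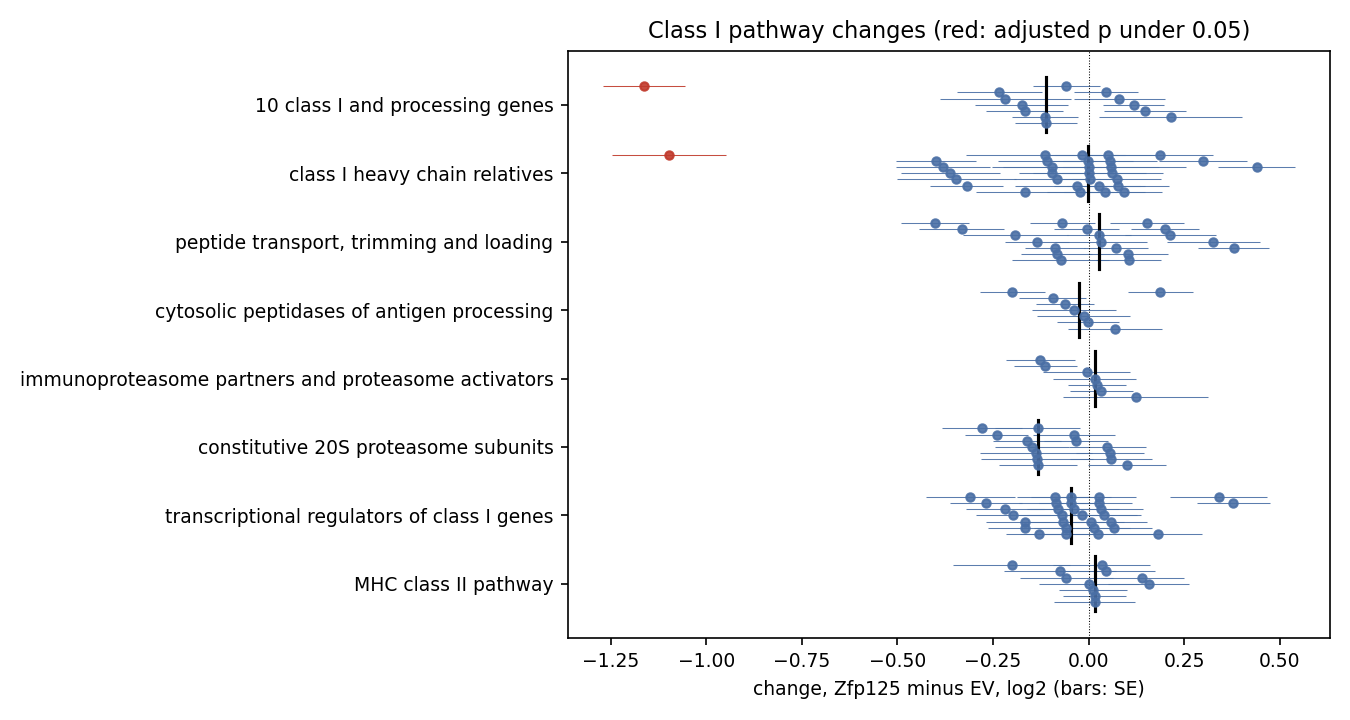
Change of each cluster, Zfp125 minus EV on the log2 scale with its SE (x axis), for the 13 clusters of the 10 genes in the top row and for the 7 lists of other pathway genes below, with a black bar at the median of each row and red points for clusters with an adjusted p under 0.05. The 2 red points are H2-Q10 at -1.16 and Azgp1 at -1.10, and the medians of the 8 rows lie between -0.13 and 0.03.

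Markers of cell types were measured on the same arrays. Of 13 clusters of hepatocyte markers, 1 was called lower, the aminotransferase gene Tat, at -1.46 ± 0.18 (limma, adjusted p = 0.021), and 0 higher, with a median of -0.12. Their mean level was 8.48 to 8.66 on the EV arrays and 8.19 to 8.36 on the Zfp125 arrays. All Zfp125 arrays lay below all EV arrays in 4 of the 13 clusters and above them in 0, beside the 3.51% and 3.65% of clusters with 1 gene symbol given above. Those 4 were Tat, Alb (serum albumin) at -0.48 ± 0.08, Apoa1 (an apolipoprotein of HDL) at -0.61 ± 0.15 and Hnf4a (a hepatocyte transcription factor) at -0.38 ± 0.08. The last 3 did not pass the test (limma, adjusted p = 0.0794, 0.198 and 0.14). Cps1, of the urea cycle, was at -0.84 ± 0.22 with overlapping groups (limma, adjusted p = 0.247). The highest change of the list was that of Ttr, transthyretin, at 0.08 ± 0.10. Of 12 macrophage and leukocyte markers 0 were called, with a mean level of 4.33 to 4.51 on the EV arrays and 4.34 to 4.41 on the Zfp125 arrays. The pan-leukocyte marker Ptprc was dim, at 3.09 ± 0.17 in EV and 3.05 ± 0.06 in Zfp125 cells. All Zfp125 arrays lay below all EV arrays in 1 of the 12 clusters, Cd14, and above them in 0. Cd14 was brighter, at 7.62 ± 0.04 in EV and 7.31 ± 0.08 in Zfp125 cells, a change of -0.31 ± 0.08 (limma, adjusted p = 0.221). Of the endothelial, stellate and biliary markers 0 were called, with medians of -0.01, -0.01 and 0.03. The groups overlapped in every endothelial and stellate cluster. All Zfp125 arrays lay above all EV arrays in 1 of the 5 biliary clusters, Sox9, and below them in 0. Sox9 was at 9.75 ± 0.06 in EV and 10.04 ± 0.10 in Zfp125 cells, a change of 0.28 ± 0.09 (limma, adjusted p = 0.315). The part of any of these cell types in the change of H2-Q10 was not tested.

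The 5 genes whose values were most like those of the brighter H2-Q10 cluster over the 8 arrays, among clusters with 1 symbol, were Cdkn1a, Cybb, Oat, Kng2 and Sntb1. Cdkn1a encodes a cell cycle inhibitor, Cybb the catalytic subunit of the phagocyte NADPH oxidase, Oat ornithine aminotransferase, Kng2 a kininogen of plasma and Sntb1 a syntrophin. Their changes were -0.67, -1.36, -0.44, -1.27 and -1.54. This likeness was ranked by a correlation that the difference between the groups dominates, so it mainly lists genes that were low in the same 4 arrays. The nearest genes with a cluster of their own on either side of H2-Q10 in the RefSeq order were H2-Q5, at 0.0017 ± 0.25, and Pou5f1, at -0.05 ± 0.11. Between them and H2-Q10 lay 5 genes and 1 gene, and the H2-Q5 cluster was dim, at 4.08 ± 0.48 in EV cells. On either side of B2m the nearest such genes were Patl2, at -0.06 ± 0.08, and Trim69, at 0.01 ± 0.11.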

How the data were processed

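The deposited table holds 1 log2 expression value for each of 41345 transcript clusters on each of 8 arrays. The authors made these log2 values with Affymetrix Expression Console and Transcriptome Analysis Console, per the submitters' processing notes. How arrays were background-corrected and normalized, and the software versions, are not stated in those notes. The scale was inferred from the range of the values. No array was normalized again.

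Clusters were named through the platform annotation (23521 with 1 symbol, 1814 with several, 16010 unnamed here), with symbols updated through Entrez identifiers to the GRCm38.p6 RefSeq table. The main test was limma 3.58.1 (lmFit and eBayes, R 4.3.3) on every cluster, group as the only term, two-sided, with Benjamini-Hochberg adjustment over all clusters. Promoters were aligned to H2-K1 with Biopython 1.88 and plots drawn with matplotlib 3.10.9.

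Named pathway genes are those with a called cluster, the 3 of each list with the smallest p, and a fixed set of class I regulators, loading, trimming and proteasome genes. Nfya, Fcgrt, Mr1, Alb, Apoa1, Hnf4a, Cps1, Ttr, Tat, Ptprc, Cd14, Sox9 and the H2-Q7, H2-Q9 and H2-Q8 clusters were chosen after their values were seen. The genes and lists were chosen with earlier results of these data known. Alternatives covered normalization, dim clusters, moderation, array weights, the choice of cluster, the replicate block and leaving out each array.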

Additional observations from a re-analysis of the deposited data

Results flagged for a closer look

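Within each group of 4 arrays, an array was singled out when its gap to the nearest other array passed Dixon's critical value as a share of the group's range. In all, 10 of 90 groups of named clusters met this, where chance gives about 1 in 20. EV replicate 1 was the lowest for Psmb8 (4.95, the others 5.60 to 5.71) and H2-Oa (3.76) and the highest for Calr (10.49) and Ide (8.28). EV replicate 2 was the lowest for Hfe (5.54). Zfp125 replicate 1 was the lowest for B2m (11.44, the others 11.49), Zfp125 replicate 3 the lowest for Erap1 (5.72) and Psmb7 (7.04), Zfp125 replicate 2 the highest for Irf1 (6.64) and Zfp125 replicate 4 the lowest for H2-DMa (4.53). Of these clusters, 0 were called. The brighter cluster of H2-Q10 was not among them.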

How the results depend on the processing

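The change of the brighter H2-Q10 cluster stayed at -1.16 without moderation and with the replicate block, but its call ended, so 0 of the 13 clusters were called there. The pathway lists likewise had 0 calls without moderation, with the replicate block and in 7 of the 8 omissions of 1 array (range 0 to 1). Over all clusters, 61 were called. The count was 232 among clusters above the median level, 94 above the 25th percentile, 4 without moderation, 196 with a trended, robust prior, 240 with 1 cluster for each gene, 227 with means of clusters, 0 with the replicate block, and 16 to 61 when 1 array was left out. Same-numbered arrays did not deviate together (correlations of -0.04 to 0.03). These correlations cannot show how the samples were made or numbered, so whether the numbers pair the samples is not known. Quantile normalization again gave 71 calls, centring 52 and array weights 58. The 4 arrays a group and the spread between them limit the precision, and no detection calls were used.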
